A study of Homo sapiens with 88 samples.

Results

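The S phase and mitosis genes are a list of 43 human genes, 20 read here as S phase genes and 23 as mitosis genes, whose RNA was followed in small cell lung cancer (SCLC) lines under a treatment called 552A. Members were taken as every probe set annotated to one of these genes alone. That gave 91 of the 41091 probe sets with a single gene, 42 for S phase and 49 for mitosis, and all 43 genes are among the 15352 tested. Affymetrix HG-U133 Plus 2.0 arrays measured total RNA from 9 established SCLC lines grown in RPMI with fetal bovine serum. COLO668, NCI-H146, NCI-H446, NCI-H510, NCI-H526 and SHP-77 received 552A or the vehicle DMSO for 2, 4 or 7 days, and H1417, H2171 and H69 for 4 days. The 88 arrays fall into 42 groups of line, treatment and day, of which 39 hold 2 arrays, 2 hold 3 and 1 holds 4. The treatment protocol gives 1 µM GSK2879552, which inhibits the demethylase LSD1, beside DMSO. No label equates 552A with that compound. The design text counts 3 sensitive and 3 resistant lines without saying which is which, so lines are given by name alone.

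A dividing cell switches on these genes in an order. E2F transcription factors, released from the retinoblastoma protein late in G1, drive genes that load and fire replication origins and make nucleotides. Later the DREAM complex gives way to B-Myb and FOXM1, which drive genes that build the spindle, condense chromosomes and trigger division. SCLC nearly always lacks functional retinoblastoma protein, and its cells express both groups at high levels.

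Promoter sequences are given for members on which the results turn, because the 2 lists differ in the motifs these hold. RefSeq windows on GRCh38.p14, from 250 bases before to 50 bases after a start, were at hand for 33 of the 43 members, in 42 windows. An E2F-type motif (TTTGGCGC, TTTCGCGC, TTTGCCGC or TTTCCCGC, on either strand) lay in 63.2% of the 19 S phase windows, 13.0% of the 23 mitosis windows and 3.31% of all 35116 promoter windows. The cell cycle homology region, or CHR (TTTGAA or TTCGAA, on either strand), the element that DREAM and B-Myb bind, lay in 60.9% of mitosis windows, 10.5% of S phase windows and 16.4% of all windows. CCAAT on either strand, the box that NF-Y binds, lay in 78.3% of mitosis windows, 73.7% of S phase windows and 34.6% of all windows. No member window had an E2F-type match and a CHR match on the same bases. The lines below give the last 150 bases before the start, on the strand of the gene, with E2F-type matches (GINS2, E2F2, E2F1) and CHR matches (MKI67, CDC25C) in capitals. CCNA2 is shown as a mitosis promoter without a match to the letters searched. Other forms of the motifs were not searched, so CCNA2 may still hold such an element. The CDC25C window was picked for its match, and some other windows of CDC25C hold none. A match is a run of letters and not a shown binding site.
GINS2 (chr16:85688955-85689104, minus strand): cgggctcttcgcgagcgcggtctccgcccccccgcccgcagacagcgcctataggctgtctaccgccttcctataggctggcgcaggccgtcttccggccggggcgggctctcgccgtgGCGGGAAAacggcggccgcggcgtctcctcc
E2F2 (chr1:23531234-23531383, minus strand): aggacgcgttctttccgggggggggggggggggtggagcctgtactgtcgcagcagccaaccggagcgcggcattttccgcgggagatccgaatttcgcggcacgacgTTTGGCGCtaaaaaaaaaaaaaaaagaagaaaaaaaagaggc
E2F1 (chr20:33686386-33686535, minus strand): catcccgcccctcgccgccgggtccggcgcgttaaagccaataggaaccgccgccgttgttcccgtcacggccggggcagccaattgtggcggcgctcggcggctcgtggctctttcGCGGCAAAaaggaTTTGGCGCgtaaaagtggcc
MKI67 (chr10:128126424-128126573, minus strand): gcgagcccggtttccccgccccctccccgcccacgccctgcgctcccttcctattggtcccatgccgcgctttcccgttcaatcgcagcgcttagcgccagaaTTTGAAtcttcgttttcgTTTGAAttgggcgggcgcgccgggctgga
CDC25C (chr5:138331805-138331954, minus strand): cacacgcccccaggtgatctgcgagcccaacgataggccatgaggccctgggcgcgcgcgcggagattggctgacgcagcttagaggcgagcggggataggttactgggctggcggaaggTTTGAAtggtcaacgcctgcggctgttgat
CCNA2 (chr4:121823884-121824033, minus strand): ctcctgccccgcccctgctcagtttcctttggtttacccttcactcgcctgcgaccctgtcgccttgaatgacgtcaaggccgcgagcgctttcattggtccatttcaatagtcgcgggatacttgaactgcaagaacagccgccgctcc

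All 43 members were expressed in the 9 lines. The mean log2 level of a member over the arrays ran between 8.61 and 13.4, against a median of 7.41 over all probe sets. INSM1, a transcription factor of neuroendocrine cells, lay at 12.4 to 13.8 in the 9 lines. Of the other SCLC markers read, CHGA lay at 10.8 to 13.6, NCAM1 at 10.7 to 12.8 and SYP at only 7.66 to 8.09. POU2F3, the regulator of the tuft cell state, lay at 12.5 in NCI-H526 and at 4.54 to 4.79 in the other lines. The leukocyte marker PTPRC lay at 4.59 to 5.37, and CD3E, also read as an immune marker, at 7.49 to 7.93. Among markers of other cell types, COL1A2 reached 12.0 in H69 and CDH5 reached 10.9 in NCI-H446. The fibroblast markers DCN and COL1A1 stayed at 6.71 to 7.06 and 6.75 to 7.04. The endothelial markers PECAM1 and VWF lay at 8.06 to 8.40 and 7.61 to 7.97. The part of these in the results was not tested. Of the 88 arrays, 5 stood apart with an ACTB 3' minus 5' probe set difference above 0.8, a sign of RNA integrity. They are 552A replicates 1 and 2 and DMSO replicate 1 of SHP-77 at day 7, and 552A replicate 2 and DMSO replicate 1 of COLO668 at day 7. A sixth, NCI-H446 DMSO day 4 replicate 2, had an interquartile range of 2.56, where the lowest of the other arrays had 2.90. Counts without these 6 arrays are given beside the main ones.

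**Figure D1:**
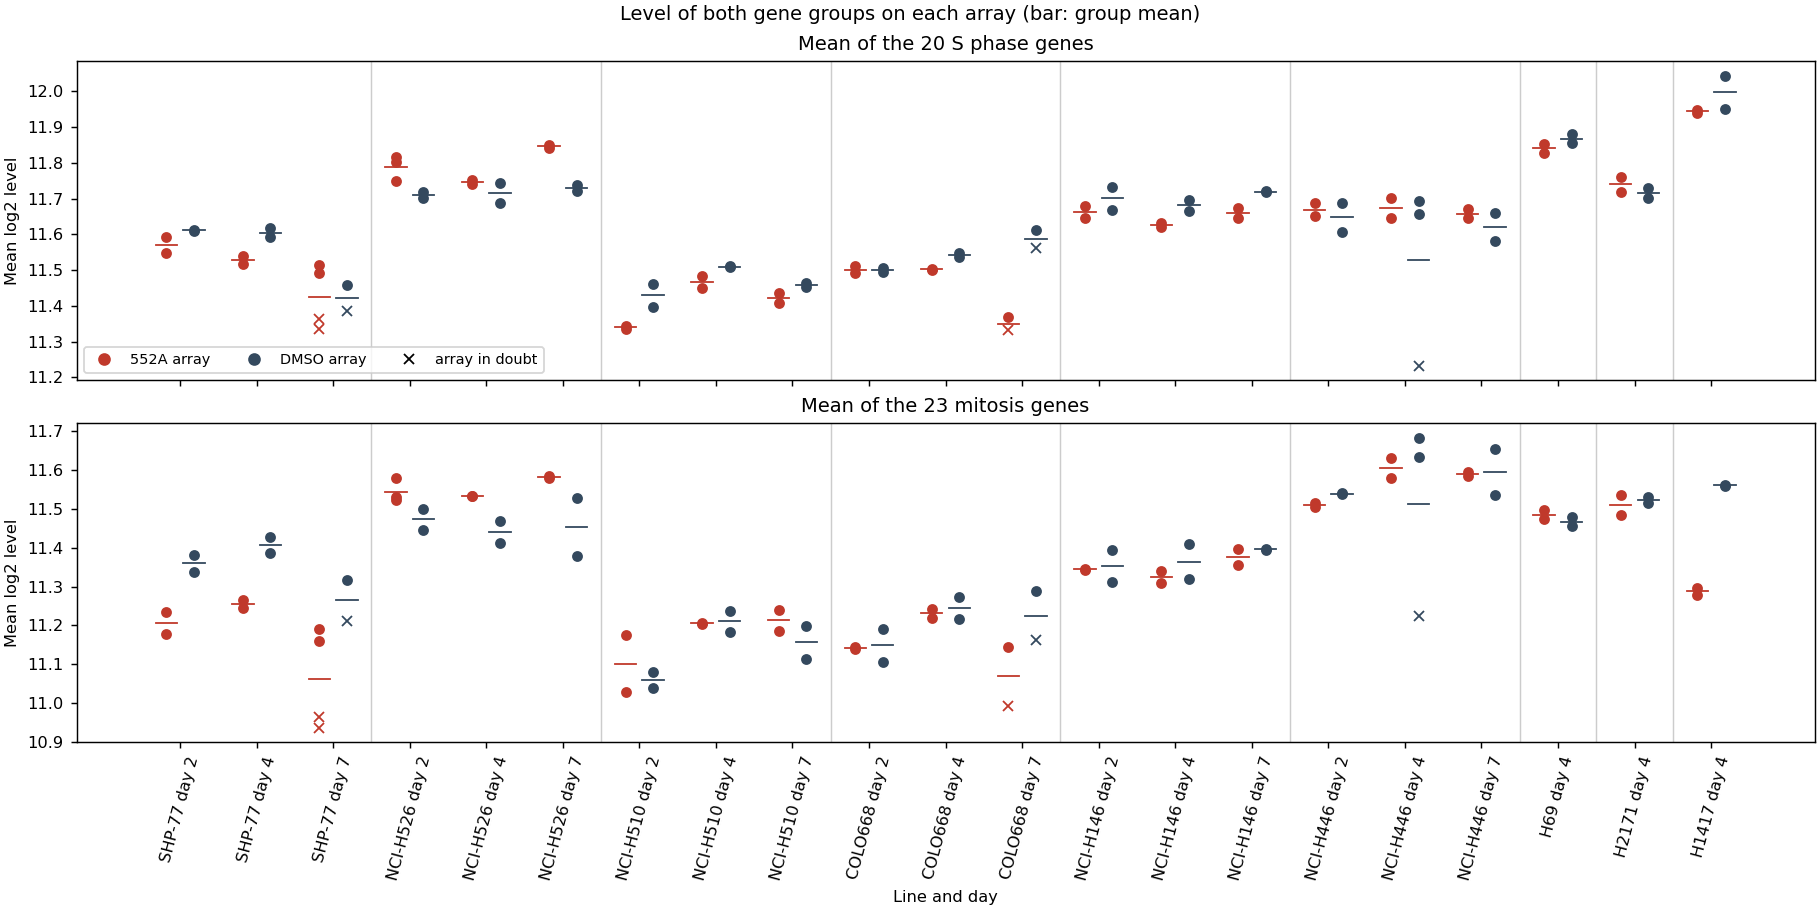
Mean log2 level of the 20 S phase genes (top) and the 23 mitosis genes (bottom) on each array, by line and day, with 552A arrays left of DMSO arrays and crosses for the 6 arrays in doubt. In H1417 the mitosis mean was 11.29 with 552A, against 11.56 with DMSO, and in NCI-H446 at day 4 a single DMSO array lay at 11.23 in the S phase mean.

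Response to 552A was read first as the mean over a line's days of 552A minus DMSO, on the log2 scale. Of the 43 members, 25 changed in at least 1 of 6 lines by limma at an adjusted p below 0.05 over all genes, giving 37 pairs of member and line, 10 higher and 27 lower. The share of members called was above that of all genes in SHP-77 (30.2% against 8.14%) and in H1417 (20.9% against 9.24%). In every other line it was below the share of all genes, as in NCI-H526 (18.6% against 21.1%) and COLO668 (11.6% against 21.2%). The sizes were small: the largest decrease was CCNA2 in H1417 at -0.46 (0.727 of the DMSO level) and the largest increase CENPF in NCI-H526 at 0.42 (1.34 times the DMSO level). Whether replicate arrays stem from different cultures is not in the labels. The p-values therefore measure the spread between arrays, pooled over the lines, which may be technical. In bulk RNA, fewer cells in a phase and less RNA per cell cannot be told apart.

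**Figure D2:**
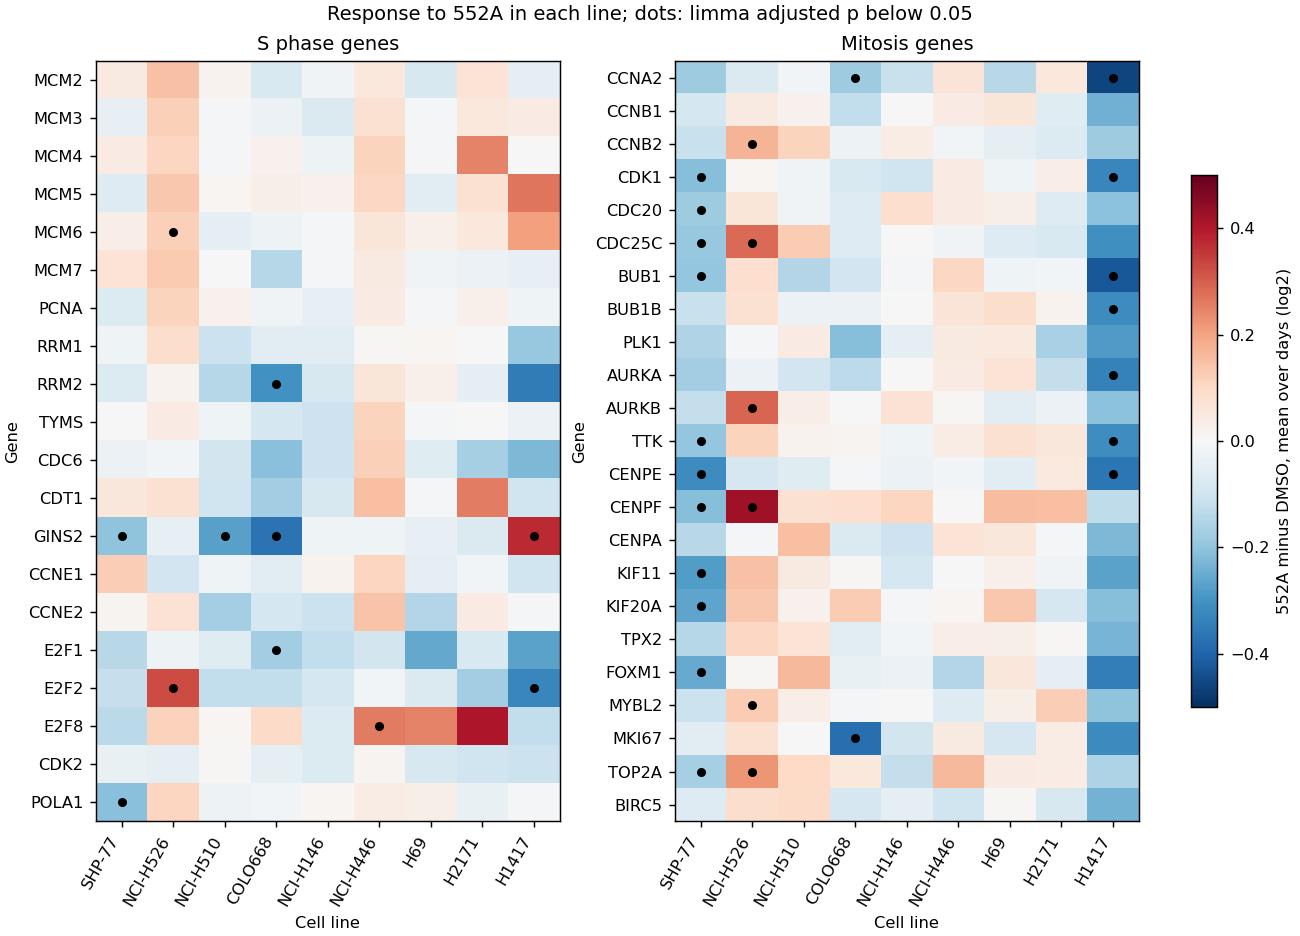
Response to 552A (log2, 552A minus DMSO, mean over the line's days) of each S phase gene (left) and mitosis gene (right) in the 9 lines, with dots where the limma adjusted p was below 0.05. SHP-77 and H1417 were below 0 in all 23 mitosis genes, while NCI-H526 had 8 members higher and none lower at that threshold.

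In SHP-77 the mitosis genes lay below DMSO, and most S phase genes did not pass the test. Of 23 mitosis genes 11 fell, and all 23 lay below 0, with a median of -0.17. Of 20 S phase genes 2 fell, POLA1 and GINS2, and the S phase median was -0.03. Over all genes 4.27% fell and 3.87% rose in this line, and the median of all genes was -0.01. The mitosis genes that fell were CENPE, KIF11, KIF20A, FOXM1, CDK1, CENPF, BUB1, TTK, CDC25C, CDC20 and TOP2A, between -0.32 and -0.16. They include motors of the spindle (CENPE, KIF11, KIF20A), checkpoint kinases (BUB1, TTK) and the activator of the anaphase-promoting complex (CDC20).

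CENPE, the kinetochore motor that carries chromosomes to the spindle equator, had the largest decrease among them. With 552A it read 9.45 and 9.37 at day 2, 9.38 and 9.50 at day 4, and 9.37, 9.36, 9.53 and 9.51 at day 7. With DMSO it read 9.72 and 9.74 at day 2, 9.71 and 9.66 at day 4, and 9.86 and 9.79 at day 7. Every 552A array lay below every DMSO array, and CENPE fell by 0.32 (SE 0.065, adjusted p = 0.000675).

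POLA1, the catalytic subunit of the polymerase that primes DNA synthesis, was the S phase gene with the largest called decrease in SHP-77. It read 10.69 and 10.55, 10.56 and 10.52, and 10.56, 10.44, 10.51 and 10.49 with 552A at days 2, 4 and 7. The DMSO arrays read 10.79 and 10.79, 10.71 and 10.67, and 10.90 and 10.71. The arms did not overlap on any day, and POLA1 fell by 0.21 (SE 0.051, adjusted p = 0.00462).

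By day in SHP-77, no member passed the test at day 2 or day 4, where 0.436% and 0.502% of all genes did, and 9 members fell at day 7, against 4.14% of all genes. The mitosis median was -0.14 at day 2, -0.16 at day 4 and -0.20 at day 7. The 552A arrays lay wholly below the DMSO arrays in 19 of 23 mitosis genes at day 2, 19 at day 4 and 12 at day 7. Day 7 had 4 arrays with 552A and 2 with DMSO, where days 2 and 4 had 2 of each, so these counts are not alike. The share of all genes lying wholly below was not counted on any day. The mean ACTB 3' minus 5' difference at day 7 was 0.54 with 552A and 1.00 with DMSO. Without the 6 arrays in doubt, 15 members fell and CCNE1 rose by 0.16, with the mitosis median at -0.16 and all 23 mitosis genes again below 0. Over all genes 4.98% fell and 4.12% rose in that setting. TTK and CDC25C then lost their call, at -0.16 each (adjusted p = 0.0666 for TTK and 0.115 for CDC25C by limma). By day, CCNB2 and GINS2 fell at day 4 in that setting, where 0.886% of all genes fell. At day 7 a single DMSO array is left, so sizes alone are given there, and the mitosis median was -0.14. Of the 9 day 7 decreases, CENPE shrank from -0.39 to -0.27, CENPF from -0.33 to -0.19 and CDC20 from -0.34 to -0.19. FOXM1 shrank from -0.33 to -0.08, AURKA from -0.32 to -0.20, BUB1B from -0.26 to -0.15 and POLA1 from -0.30 to -0.21. The rest of the 9 were KIF11 and KIF20A. Leaving out DMSO day 4 replicate 1 of SHP-77 alone left 8 members that fell.

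In H1417, sampled at day 4 only, the mitosis genes also lay below DMSO. Of 23 mitosis genes 7 fell (CCNA2, BUB1, CENPE, AURKA, CDK1, BUB1B and TTK), all 23 lay below 0, and the median was -0.27. In each of the 23 both 552A arrays lay below both DMSO arrays. Of the S phase genes 5 lay wholly below DMSO, 3 lay wholly above and 12 overlapped. The share of all genes without overlap was not counted. Of 20 S phase genes GINS2 rose and E2F2 fell, with a median of -0.04. Over all genes 3.71% fell and 5.53% rose in H1417, with a median of 0.01.

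CCNA2, the cyclin A that partners CDK2 and CDK1, read 11.23 and 11.31 with 552A, against 11.72 and 11.74 with DMSO. It fell by 0.46 (SE 0.11, adjusted p = 0.00272). GINS2, a subunit of the GINS complex of the replicative helicase, read 12.51 and 12.62 with 552A, against 12.18 and 12.21 with DMSO. It rose by 0.37 (SE 0.079, adjusted p = 0.000597), and on the same arrays the mitosis genes lay below DMSO. The other 2 kept probe sets of GINS2 were at -0.03 and 0.27 in H1417, and neither passed the test.

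The helicase subunits MCM5 and MCM6 in H1417 were at 0.27 and 0.20, with adjusted p-values of 0.0919 and 0.0533. RRM2, the regulated subunit of ribonucleotide reductase, was at -0.35 (adjusted p = 0.111). E2F2, an activator of S phase genes, read 10.96 and 10.75 with 552A, against 11.04 and 11.33 with DMSO, and fell by 0.33 (SE 0.11, adjusted p = 0.0483).

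With 4 arrays, the calls in H1417 rest on a spread estimated from all lines. From its own 4 arrays alone none of the 43 members passed, where 577 of all 15352 genes did. With the 6 arrays in doubt removed, all from other lines, 22 members fell and 3 rose (GINS2, MCM5 and MCM6), with 18 of the 23 mitosis genes among those that fell, where 6.38% of all genes fell and 8.75% rose. Leaving out NCI-H446 DMSO day 4 replicate 2 alone gave 16 calls, with 1828 over all genes. Dropping either DMSO array of H1417 gave 5 calls, dropping 552A replicate 1 gave 3 and dropping 552A replicate 2 gave 4.

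In NCI-H526 the called members were higher. Of 43 members 8 rose and none fell, where 10.7% of all genes rose and 10.5% fell. The 6 mitosis genes were CENPF, AURKB, CDC25C, TOP2A, CCNB2 and MYBL2, between 0.13 and 0.42. The S phase genes were E2F2 and MCM6. Medians were 0.08 for mitosis and 0.10 for S phase, against -0.02 for all genes.

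CENPF, a kinetochore protein of G2 and mitosis, read 11.83, 11.75 and 11.73 with 552A at day 2, 11.77 and 11.84 at day 4, and 11.88 and 11.94 at day 7. In the vehicle CENPF read 11.42 and 11.40 at day 2, 11.38 and 11.42 at day 4, and 11.53 and 11.29 at day 7. No array of one arm reached the range of the other. CENPF rose by 0.36 at day 2, 0.41 at day 4 and 0.50 at day 7, each past the test, and by 0.42 over the days (SE 0.052, adjusted p = 2.99e-09).

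E2F2 read 9.62, 9.40 and 9.59 with 552A at day 2, 9.50 and 9.39 at day 4, and 9.72 and 9.78 at day 7. The DMSO arrays read 9.34 and 9.22, 9.26 and 9.10, and 9.35 and 9.23. The arms did not overlap on any day, and E2F2 rose by 0.33 (SE 0.061, adjusted p = 3.71e-05). With the mean of its kept probe sets it stood at 0.11 and did not pass the test, since the other kept probe sets of E2F2 read -0.05 and 0.06.

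By day in NCI-H526, 2 members rose at day 2 (AURKB and CENPF), 1 at day 4 (CENPF) and 4 at day 7 (CENPF, E2F2, CDC25C and TOP2A), against 3.17%, 3.56% and 6.7% of all genes. AURKB is the kinase of the chromosomal passenger complex and TOP2A the topoisomerase that untangles chromosomes. In the fit that omits the 6 doubtful arrays, all from other lines, 20 members rose and CCNE1 fell, where 14.5% of all genes rose and 17.1% fell. Leaving out NCI-H446 DMSO day 4 replicate 2 alone gave 15 members, and leaving out DMSO day 2 replicate 1 or DMSO day 4 replicate 2 of NCI-H526 gave 5.

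In COLO668 the called members were lower. Of 43 members 5 fell and none rose: the S phase genes GINS2, RRM2 and E2F1, and the mitosis genes MKI67 and CCNA2. Over all genes 8.81% fell and 12.3% rose. The S phase median was -0.07 and the mitosis median -0.05, against -0.02 for all genes.

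GINS2 had the smallest adjusted p of the members in this line. With 552A it read 12.17 and 12.17 at day 2, 11.97 and 12.04 at day 4, and 11.44 and 11.42 at day 7. With DMSO it read 12.36 and 12.37 at day 2, 12.24 and 12.31 at day 4, and 12.08 and 12.06 at day 7. The arms were apart on each day and the gap was widest at day 7. GINS2 was at -0.19 at day 2 (adjusted p = 0.302), at -0.27 at day 4 (adjusted p = 0.0310, 1.62% of all genes lower) and at -0.64 at day 7 (adjusted p = 6.04e-09). Over the days it fell by 0.37 (SE 0.046, adjusted p = 5.01e-09). The other 2 kept probe sets of GINS2 were at -0.23 and -0.13 over the days, and neither passed the test.

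MKI67, the Ki-67 antigen of cycling cells, read 10.54 and 10.42 with 552A at day 2, 10.63 and 10.61 at day 4, and 10.28 and 9.08 at day 7. On the DMSO arrays it was 10.56 and 10.80, 10.76 and 10.69, and 10.54 and 10.49. A single array, 552A day 7 replicate 2, carried the low value of 9.08. MKI67 fell by 0.38 over all arrays (SE 0.14, adjusted p = 0.0423) and stood at -0.17 without the 6 arrays in doubt (adjusted p = 0.0807). The other 3 kept probe sets of MKI67 lay between -0.15 and -0.04 over all arrays, and none passed the test. The 4 lowest MKI67 values of all 88 arrays, 8.97 to 9.23, lay on 4 of the 5 arrays with an ACTB difference above 0.8, and the next lowest was 9.94.

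At day 7 in COLO668, 11 members fell, against 11.2% of all genes: GINS2, RRM2, CDC6, MCM7, CDT1 and TYMS of S phase, and MKI67, CCNA2, CDK1, MYBL2 and CCNB1 of mitosis. CDC6 and CDT1, which load the MCM helicase at origins, fell by 0.59 and 0.36. CDC6 read 9.44 and 9.45 with 552A, against 9.94 and 10.13 with DMSO, with no overlap. RRM2 read 12.74 and 12.46 with 552A, against 13.09 and 13.37 with DMSO, and fell by 0.64. The mean ACTB 3' minus 5' difference at day 7 was 0.96 with 552A and 0.70 with DMSO. Omitting the 6 doubtful arrays leaves 1 array an arm at day 7, so that the spread there is taken from the other groups. Then 13 members fell at day 7 and FOXM1 rose, where 11.8% of all genes fell and 16.4% rose. CDT1 (0.00), MCM7 (-0.16), MKI67 (-0.21) and MYBL2 (-0.20) lost their day 7 call in that setting. Over the days 11 members fell, where 12.6% of all genes did. Over the days, leaving out 552A replicate 2 of day 7 or either array of day 4 with 552A gave 3, 3 and 2 members, and leaving out DMSO day 4 replicate 1 gave 3. Leaving out replicate 2 of either arm at day 2 gave 2, and leaving out NCI-H446 DMSO day 4 replicate 2 gave 10, of which 9 were lower and 1 was higher.

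In NCI-H510 a single member changed. GINS2 read 12.32 and 12.30 with 552A at day 2, 12.46 and 12.41 at day 4, and 12.39 and 12.39 at day 7. Its DMSO values were 12.53 and 12.68, 12.74 and 12.74, and 12.59 and 12.63. All 552A arrays lay below all DMSO arrays, and GINS2 fell by 0.27 (SE 0.046, adjusted p = 5.69e-06), where 6.44% of all genes fell and 8.6% rose. It also fell at day 2 and at day 4 alone, against 1.39% and 1.59% of all genes. The other 2 kept probe sets of GINS2 were at -0.07 and -0.06 over the days, and neither passed the test. Once the 6 arrays in doubt were omitted, 5 members fell (GINS2, CCNE2, BUB1, RRM2 and RRM1) and 5 rose (FOXM1, CENPA, CCNB2, TOP2A and BIRC5), where 10.5% of all genes fell and 12.3% rose. Leaving out NCI-H446 DMSO day 4 replicate 2 alone gave 2 that fell, with 2870 calls over all genes.

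In NCI-H446 E2F8, an atypical E2F that represses E2F targets, was the only member called over the days. It read 8.32 and 8.39 with 552A at day 2, 8.52 and 8.44 at day 4, and 8.30 and 8.41 at day 7. In DMSO it was 8.14 and 8.04 at day 2, 8.43, 7.58 and 8.18 at day 4, and 8.29 and 8.23 at day 7. E2F8 rose by 0.26 (SE 0.080, adjusted p = 0.0399), where 4.31% of all genes rose and 1.28% fell.

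The 7.58 was DMSO day 4 replicate 2, the array with the narrow spread. At day 4 CDC6, CCNE2, E2F8 and CCNE1 rose in NCI-H446, against 8.06% of all genes, by 0.52, 0.42, 0.42 and 0.26. That array was the lowest DMSO value in each of them, at 9.77 for CDC6, 11.56 for CCNE2 and 10.70 for CCNE1. Omitting the 6 arrays in doubt, none of the 43 passed at day 4, where 5.0% of all genes did. Over the days E2F8 then stood at 0.18 (adjusted p = 0.0913 by limma), and FOXM1 and BIRC5 fell, where 2.77% of all genes did. Leaving out single arrays of NCI-H446 gave 4 calls for DMSO day 4 replicate 1, 3 for DMSO day 4 replicate 3 and 0 for each of the other 11. Leaving out either DMSO day 7 array of COLO668 gave 2.

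NCI-H146, H69 and H2171 had no member past the limma test, where 6.39%, 4.18% and 2.01% of all genes passed. At an unadjusted p below 0.05 there were 3, 1 and 2 members. E2F8 in H2171 stood at 0.40 (SE 0.14, adjusted p = 0.174). Omitting those 6 arrays, TOP2A and TYMS fell in NCI-H146, E2F1 fell in H69, and E2F8 and MCM4 rose in H2171, where 3.63% and 2.98% of all genes fell in NCI-H146 and H69 and 2.61% rose in H2171. Leaving out NCI-H446 DMSO day 4 replicate 2 alone gave 1 member that rose in H2171, with 442 calls over all genes.

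**Figure D3:**
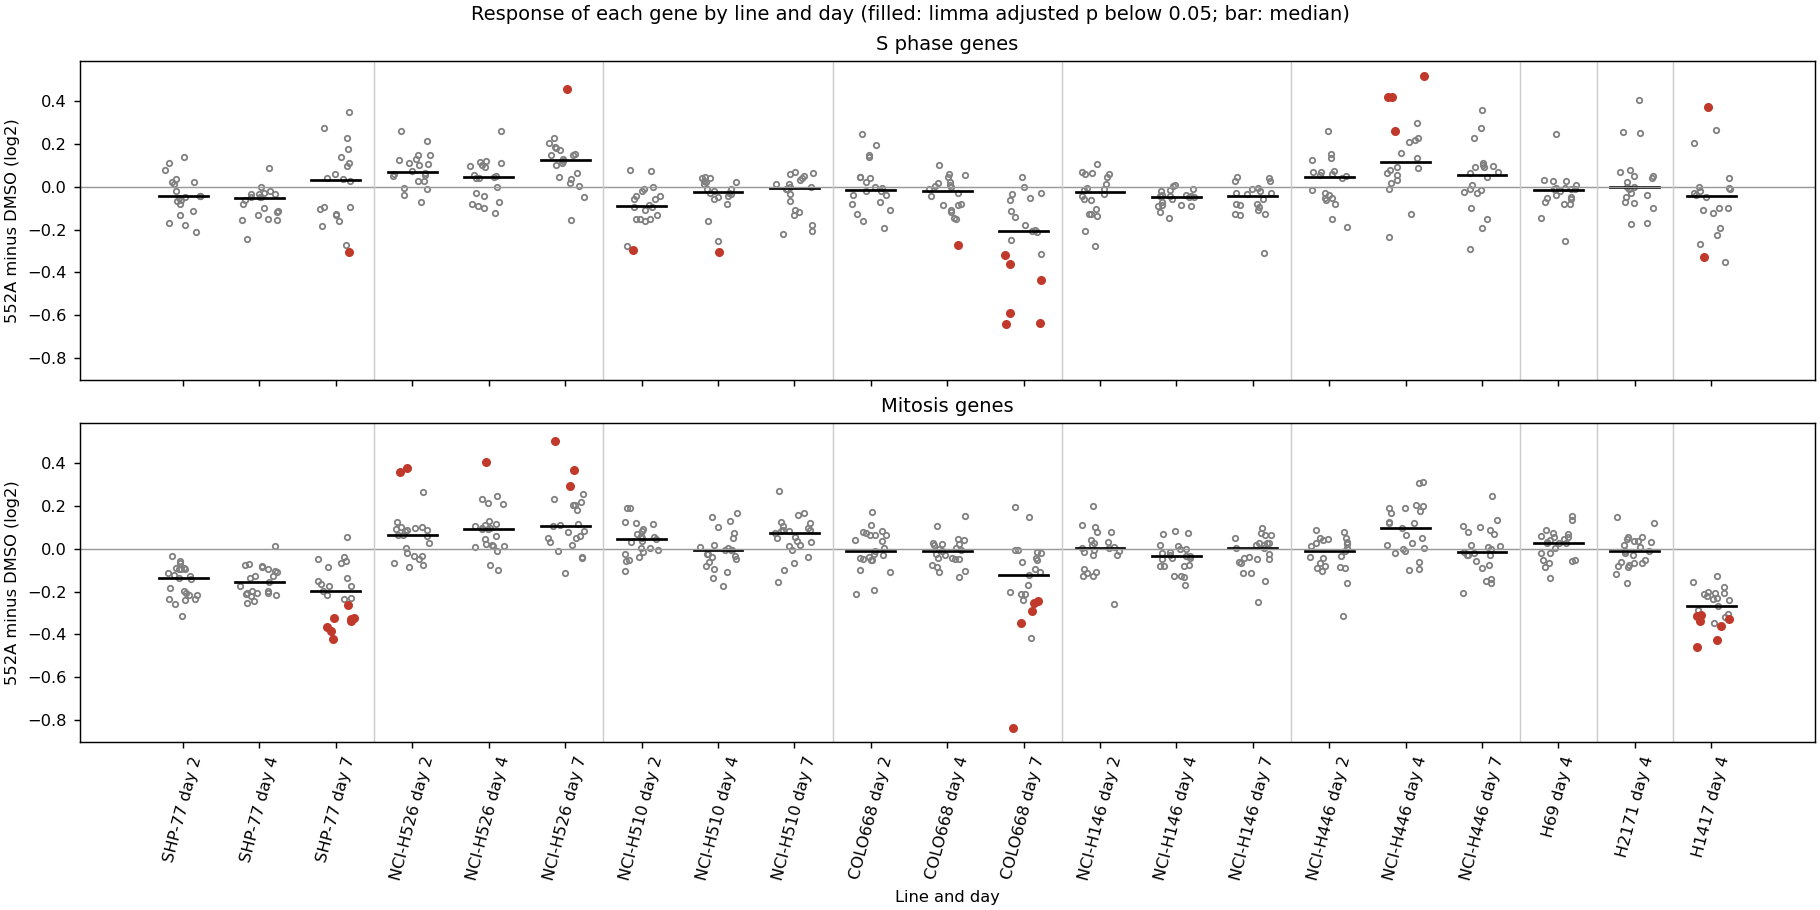
Response of each S phase gene (top) and mitosis gene (bottom) by line and day, as 552A minus DMSO on the log2 scale, with filled points for a limma adjusted p below 0.05 and a bar at the median. The mitosis median lay at -0.14, -0.16 and -0.20 in SHP-77 at days 2, 4 and 7 and at -0.27 in H1417.

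For the mean over days, 18 members were called in no line, 13 of S phase and 5 of mitosis, and some of them were called on a single day as given above. The S phase ones were MCM2, MCM3, MCM4, MCM5 and MCM7 of the helicase, the sliding clamp PCNA, RRM1, TYMS, CDC6, CDT1, the cyclins E CCNE1 and CCNE2, and their kinase CDK2. The mitosis ones were CCNB1, PLK1, CENPA, TPX2 and BIRC5. CDK2 kept within -0.11 and 0.01 over the 9 lines, and PCNA within -0.07 and 0.11. PLK1, the kinase of mitotic entry, ranged between -0.28 in H1417 and 0.05.

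Whether the response differed between lines was tested directly. The moderated F test of an equal response over the 6 time course lines passed for 18 of the 43 members, 41.9%, against 38.1% of all genes, a share near the background. CENPF had the smallest p, with responses between -0.21 in SHP-77 and 0.42 in NCI-H526 (adjusted p = 3.47e-08). GINS2 followed, between -0.37 in COLO668 and -0.02 in NCI-H446 (adjusted p = 4.46e-06). E2F2 lay between -0.12 in NCI-H510 and 0.33 in NCI-H526 (adjusted p = 7.71e-05).

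KIF20A, a kinesin of the central spindle, lay between -0.26 in SHP-77 and 0.13 in NCI-H526 (adjusted p = 9.99e-05). In SHP-77 it read 11.03 and 11.10 with 552A at day 2, 11.11 and 11.09 at day 4, and 11.35, 11.30, 11.09 and 11.06 at day 7. With DMSO KIF20A read 11.30 and 11.27, 11.34 and 11.27, and 11.75 and 11.37, above the 552A arrays of the same day throughout. In NCI-H526 KIF20A read 11.68, 11.69 and 11.58, 11.70 and 11.69, and 11.79 and 11.79 with 552A, against 11.61 and 11.52, 11.64 and 11.53, and 11.68 and 11.49 with DMSO. The arms overlapped at day 2 in NCI-H526 and not at days 4 and 7, and its response there of 0.13 missed the test (adjusted p = 0.0559). Of the 18 members 13 were of mitosis, and SHP-77 had the lowest response of 15.

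**Figure D4:**
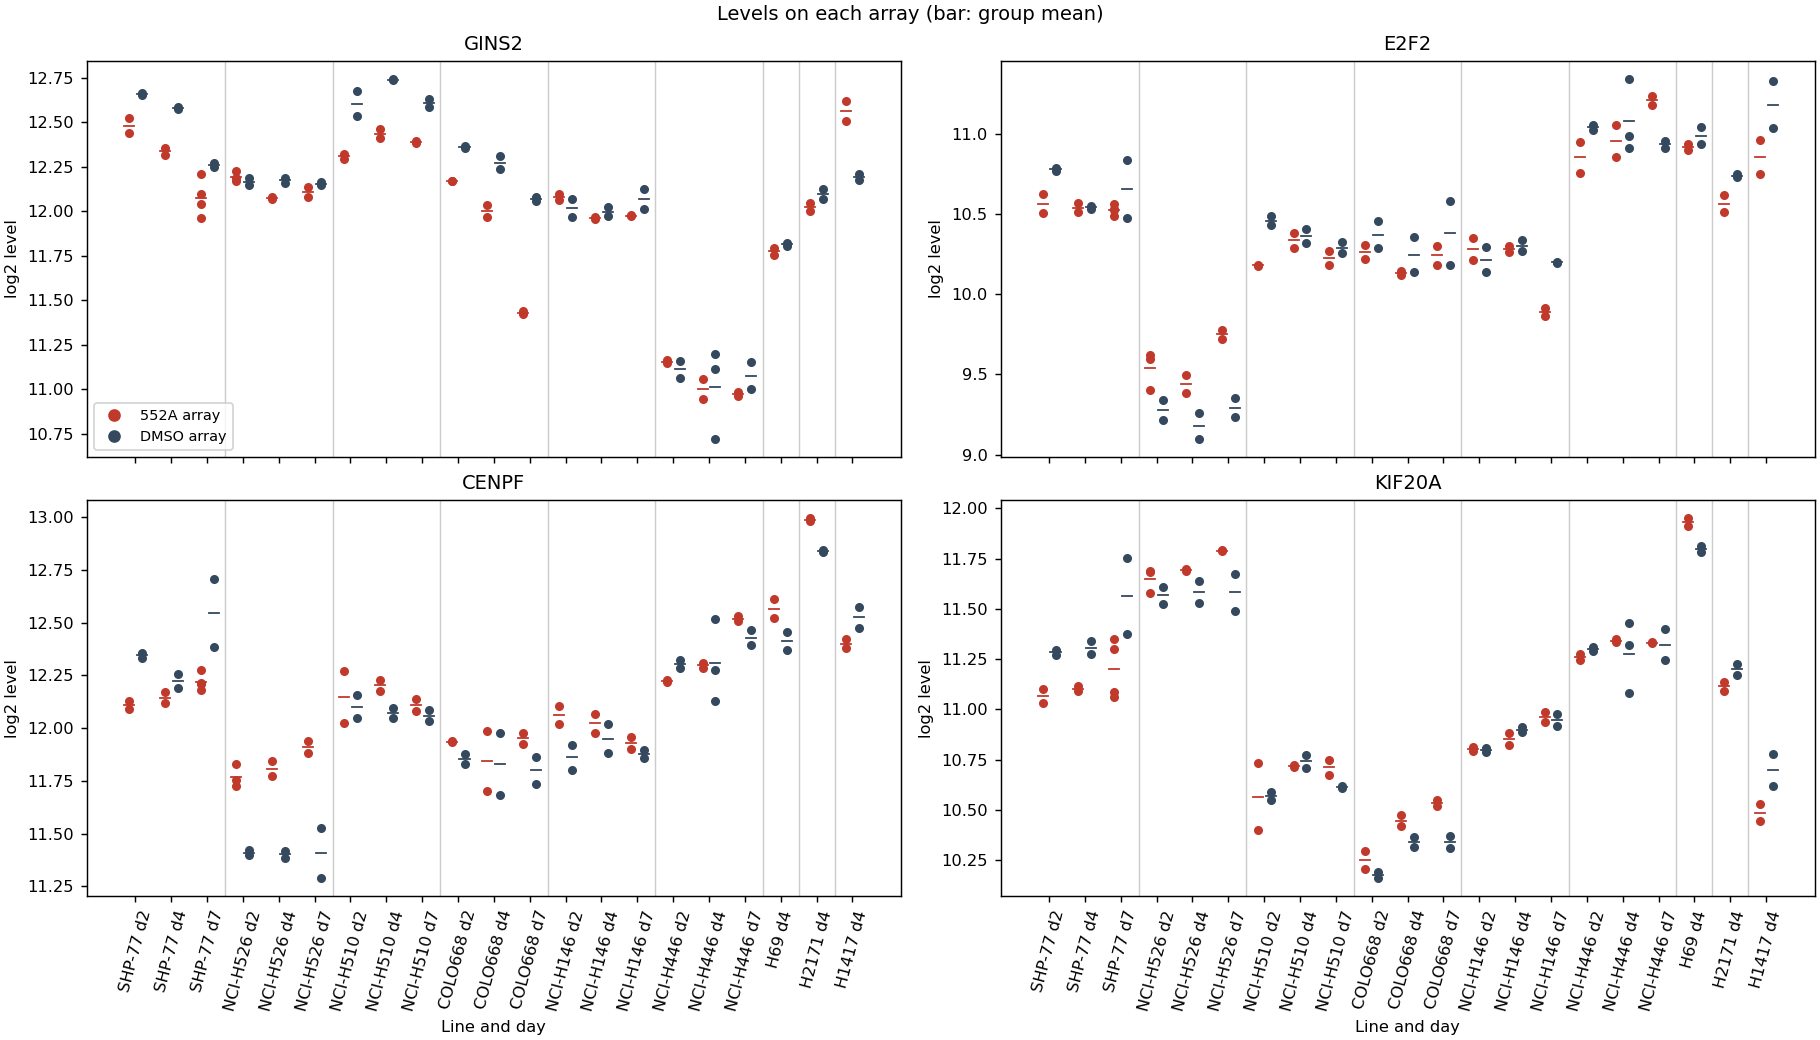
Log2 level of GINS2, E2F2, CENPF and KIF20A on each array by line and day, 552A left of DMSO, with a bar at the group mean. GINS2 with 552A lay below DMSO in SHP-77, NCI-H510 and COLO668 on each day and above it in H1417. CENPF with 552A lay above DMSO in NCI-H526 on each day.

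A response shared by the 9 lines at day 4, with the line as the replicate, was called for no member by limma, and for 0.0521% of all genes. Only E2F1 was below an unadjusted p of 0.05. E2F1, the activator of the G1 to S transition, was lower with 552A in 9 of 9 lines, between -0.27 in H1417 and -0.03 in NCI-H510, with a mean of -0.15 (SE 0.034, adjusted p = 0.118). Of the 23 mitosis genes 20 had a mean below 0 and of the 20 S phase genes 8, with medians of -0.03 and 0.00, against 0.00 for all genes.

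Other genes of the same processes, listed by role and with earlier results of these data known, also had calls in the lines with the most called members. Of 51 other mitosis genes 24 fell in SHP-77 and 25 in H1417, or 47.1% and 49.0%, against 4.27% and 3.71% of all genes, and all 51 lay below 0 in both, with medians of -0.16 and -0.30. In NCI-H526 11 of the 51 rose (21.6%, against 10.7% of all genes) and none fell, with a median of 0.08. TRIP13, an ATPase of the spindle checkpoint, had the largest absolute mean in its list over the 9 lines' responses (-0.22, each line averaged over its days) and fell in NCI-H510, COLO668 and H1417 by 0.37, 0.52 and 0.54. SMC2, a condensin subunit, fell in NCI-H510 and NCI-H146 by 0.27 and 0.34. SPC25 of the kinetochore fell in SHP-77, COLO668 and H1417 by 0.23, 0.33 and 0.60.

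Of 30 other replication genes 6 fell in SHP-77 and 6 in COLO668, where 4.27% and 8.81% of all genes did, and 4 fell in H1417 (13.3%, against 3.71%). In COLO668 2 rose. In NCI-H526 4 rose, 13.3% against 10.7% of all genes, a share near the background. RFC3, a subunit of the clamp loader, fell by 0.17, 0.18 and 0.95 in SHP-77, COLO668 and H1417. GINS4, a partner of GINS2 in the helicase, fell in H1417 by 0.73, where GINS2 rose by 0.37. CDC45, which joins GINS and MCM in the helicase, fell by 0.16 in SHP-77 and by 0.21 in COLO668. Of 15 regulators, TFDP2 rose in NCI-H510 by 0.22, NFYA rose in NCI-H526 by 0.38, and TFDP1, a partner of E2F factors, was called in no line, with values between -0.32 and 0.10.

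Change over culture time was read in DMSO as day 7 minus day 2. In SHP-77 MCM7, RRM2, TYMS, GINS2, CCNB2 and MKI67 fell and KIF20A rose, against 4.96% and 3.28% of all genes. In COLO668 CDK1, CDC25C, TTK and TOP2A rose and GINS2 fell, against 3.24% and 2.04%. NCI-H526, NCI-H510, NCI-H146 and NCI-H446 had no member past the limma test, where 0.0261%, 0.554%, 0.13% and 0.397% of all genes passed, and 0, 3, 0 and 1 members at an unadjusted p below 0.05.

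MKI67 in SHP-77 read 9.23 and 10.09 at day 7, against 10.19 and 10.65 at day 2, and fell by 0.76, with the 9.23 on the DMSO array with the highest ACTB difference, 1.67. Without the 6 arrays in doubt MKI67 in SHP-77 stood at -0.33 (adjusted p = 0.178) and the members that fell there were GINS2, RRM2, MCM5 and TYMS, where 2.16% of all genes fell. MCM7, CCNB2 and KIF20A also lost their call. In COLO668 17 members then rose and 4 fell, where 14.3% of all genes rose and 9.6% fell. CCNE2 there rose by 0.69 and E2F8 by 0.53, each on 1 DMSO array at day 7.

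Over the 6 lines together no member was called for DMSO day 7 minus day 2, against 0.00651% of all genes, and 4 were below an unadjusted p of 0.05 (CDC25C, FOXM1, E2F1 and KIF20A). CDC25C, the phosphatase that activates CDK1, was higher at day 7 in 6 of 6 lines, with a mean of 0.23 (SE 0.057, adjusted p = 0.339). At day 7 CDC25C read 10.07 and 10.01 in SHP-77, 9.69 and 9.36 in NCI-H526, 9.24 and 9.19 in NCI-H510, 9.01 and 9.17 in COLO668, 8.94 and 9.10 in NCI-H146, and 10.33 and 10.14 in NCI-H446. At day 2 it read 9.85 and 9.83, 9.40 and 9.35, 9.05 and 9.10, 8.65 and 8.63, 8.97 and 8.86, and 9.90 and 9.83 in the same lines. The days overlapped in NCI-H526 and NCI-H146.

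FOXM1 was lower at day 7 in 6 of 6 lines, with a mean of -0.19 (SE 0.047, adjusted p = 0.339). At day 7 FOXM1 read 10.17 and 10.14 in SHP-77, 11.28 and 11.26 in NCI-H526, 10.48 and 10.59 in NCI-H510, 10.49 and 10.13 in COLO668, 11.27 and 11.10 in NCI-H146, and 11.49 and 11.48 in NCI-H446. At day 2 it read 10.40 and 10.51, 11.45 and 11.26, 10.73 and 10.76, 10.44 and 10.62, 11.38 and 11.21, and 11.66 and 11.78. The days were apart in SHP-77, NCI-H510 and NCI-H446 and overlapped in the other 3. FOXM1 and CENPA were read from probe sets that can also bind related transcripts.

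E2F1 and GINS2 had the largest such mean among S phase genes. E2F1 read 10.37 and 9.99 at day 7 and 10.23 and 10.26 at day 2 in SHP-77, and 10.46 and 10.65 against 10.55 and 10.55 in NCI-H526. It read 10.17 and 10.07 at day 7 against 10.30 and 10.30 in NCI-H510, 10.35 and 9.97 against 10.34 and 10.42 in COLO668, 10.39 and 10.27 against 10.62 and 10.42 in NCI-H146, and 10.23 and 10.17 against 10.32 and 10.25 in NCI-H446. E2F1 was lower at day 7 in 5 of 6 lines by group means (mean -0.12, adjusted p = 0.461).

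GINS2 in DMSO read 12.27 and 12.25 at day 7, against 12.67 and 12.66 at day 2, in SHP-77, and 12.08 and 12.06 against 12.36 and 12.37 in COLO668, and it fell in both. It read 12.15 and 12.16 at day 7 against 12.19 and 12.15 in NCI-H526, 12.59 and 12.63 against 12.53 and 12.68 in NCI-H510, 12.01 and 12.12 against 12.07 and 11.97 in NCI-H146, and 11.15 and 11.00 against 11.16 and 11.07 in NCI-H446. The days overlapped in these 4 lines.

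The response to 552A at day 7 minus that at day 2 was called for GINS2 (-0.45, SE 0.11, adjusted p = 0.0112) and MYBL2 (-0.33, SE 0.10, adjusted p = 0.0491) in COLO668, where 4.61% of all genes were called. MYBL2, the gene of B-Myb, was at 0.07 at day 2, 0.15 at day 4 and -0.26 at day 7. It read 11.07 and 11.04 with 552A at day 2 and 10.64 and 10.65 at day 7, against 10.93 and 11.03 at day 2 and 10.96 and 10.84 at day 7 with DMSO. SHP-77, NCI-H526, NCI-H510, NCI-H146 and NCI-H446 had no member past the limma test, where 0.111%, 0.508%, 0.15%, 0.0521% and 0.228% of all genes passed, and 1, 0, 0, 1 and 3 members at an unadjusted p below 0.05. Without the 6 arrays in doubt 13 members were lower in COLO668 and FOXM1 was higher, where 7.08% of all genes were lower and 8.91% higher. GINS2 was then at -0.43 (adjusted p = 0.00077), and MYBL2 lost its call at -0.27 (adjusted p = 0.0627). MYBL2 also lost the call in 69 of the 88 omissions of a single array, with adjusted p-values between 0.0176 and 0.195.

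Levels in DMSO at day 4 differed between the 9 lines for 42 of 43 members, against 96.7% of all genes, with MKI67 the exception (adjusted p = 0.239). MKI67 passed too without the 6 arrays in doubt (adjusted p = 0.000667), with the ACTB covariate (0.00776) and with the mean of its probe sets (0.000323). The range of line means had a median of 1.22 over S phase genes and 1.13 over mitosis genes on the log2 scale, where the largest response of a member in any line, averaged over days, was -0.46, and the largest on a single day was -0.84 (MKI67 in COLO668 at day 7). Because a probe set's level depends on its probes, lines are compared within a gene only.

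E2F2 had the widest range. Line means were 11.18 ± 0.21 in H1417 (SD, arrays 11.04 and 11.33), 11.08 ± 0.23 in NCI-H446 (10.91, 10.99 and 11.34), 10.99 ± 0.08 in H69 (11.04 and 10.94), 10.74 ± 0.01 in H2171 (10.75 and 10.73), 10.54 ± 0.01 in SHP-77 (10.53 and 10.55), 10.36 ± 0.06 in NCI-H510 (10.32 and 10.41), 10.30 ± 0.05 in NCI-H146 (10.34 and 10.27), 10.25 ± 0.15 in COLO668 (10.36 and 10.14) and 9.18 ± 0.12 in NCI-H526 (arrays 9.26 and 9.10). H1417, NCI-H446 and H69 lay within their spread of each other, as did NCI-H510, NCI-H146 and COLO668, and NCI-H526 stood alone at the low end.

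CCNE2, the cyclin E2 that starts S phase with CDK2, lay between 12.87 in NCI-H510 (12.85 and 12.89) and 10.99 in H2171 (11.05 and 10.93). Between them came H69 at 12.68 (12.75 and 12.62), H1417 at 12.45 (12.50 and 12.40), NCI-H446 at 12.00 (12.29, 11.56 and 12.15), SHP-77 at 11.89 (11.88 and 11.90), NCI-H526 at 11.77 (11.86 and 11.69), NCI-H146 at 11.55 (11.58 and 11.53) and COLO668 at 11.53 (11.47 and 11.58). NCI-H446 had an SD of 0.39 over 3 arrays and with all 3 did not stand apart from SHP-77 or NCI-H526. Its 11.56 was DMSO day 4 replicate 2, an array in doubt. The other readings of NCI-H446, 12.29 and 12.15, lay above every array of SHP-77 and NCI-H526. The array in doubt is also among the NCI-H446 arrays given for E2F2, CDC20 and CCNB2.

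CDC20 lay between 13.23 in NCI-H510 (13.18 and 13.28) and 11.47 in NCI-H146 (11.53 and 11.41), with H69 (11.45 and 11.51) within the spread of the lowest. The other lines read 12.84 and 12.80 in NCI-H526, 12.68 and 12.74 in COLO668, 12.63, 12.11 and 12.61 in NCI-H446, 12.25 and 12.15 in SHP-77, 12.17 and 12.15 in H2171, and 11.75 and 11.81 in H1417. CCNB2, a mitotic cyclin, ran the other way in NCI-H510, where it was lowest at 11.21 (11.20 and 11.22), and was highest in H1417 at 12.80 (12.76 and 12.84). It read 12.56 and 12.54 in H69, 12.47 and 12.56 in H2171, 12.35 and 12.29 in NCI-H526, 12.24, 11.97 and 12.36 in NCI-H446, 12.19 and 12.09 in SHP-77, 11.88 and 11.84 in NCI-H146, and 11.83 and 11.80 in COLO668. NCI-H510 was thus the highest line for CCNE2 and CDC20 and the lowest for CCNB2.

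**Figure D5:**
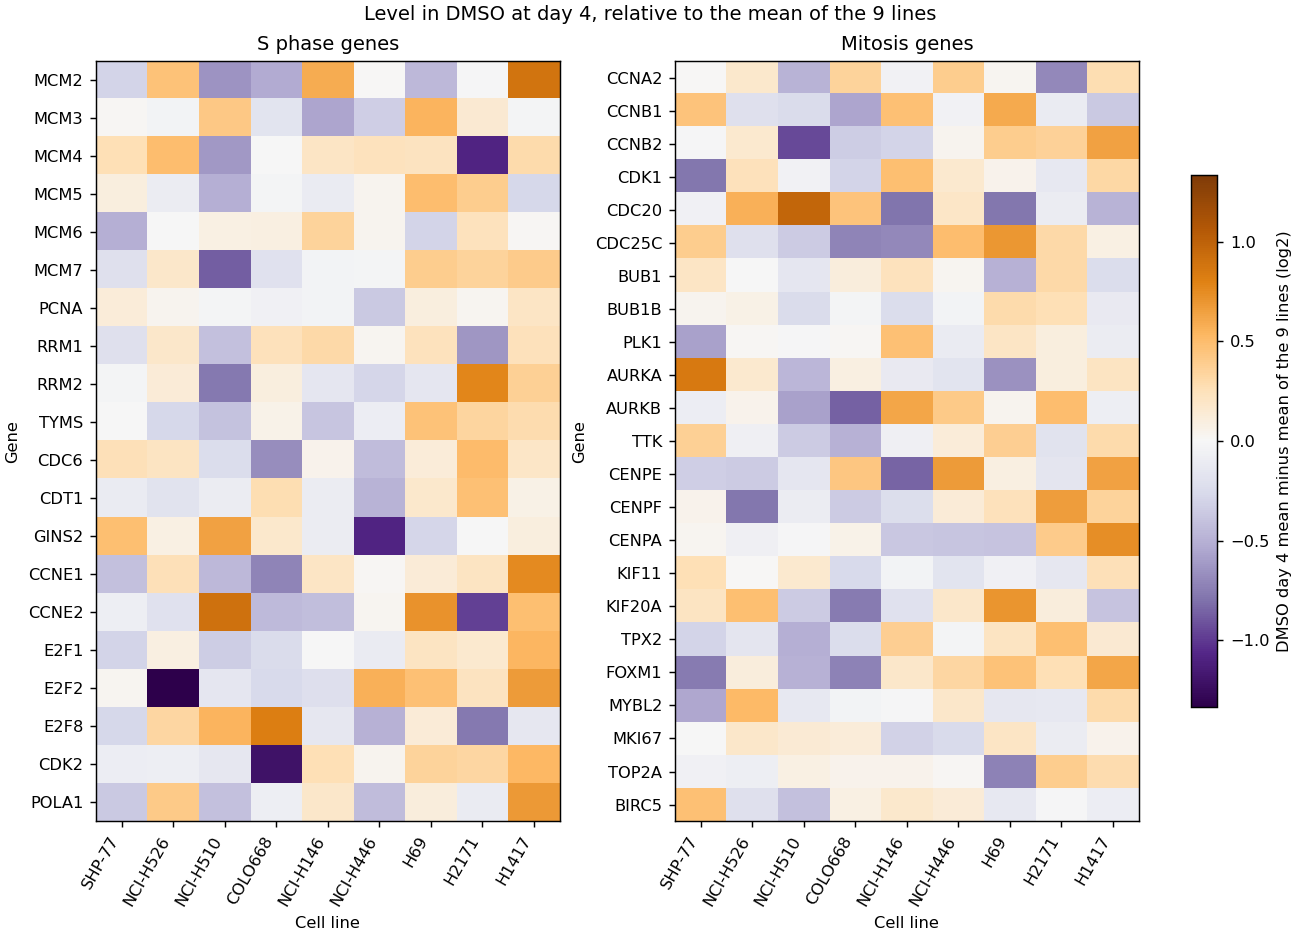
Mean log2 level in DMSO at day 4 of each S phase gene (left) and mitosis gene (right) in the 9 lines, minus the mean of the 9 lines. E2F2 had the widest range, with H1417 at 11.18 and NCI-H526 at 9.18, and MKI67 the narrowest.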

How the data were processed

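Total RNA of 9 SCLC lines was hybridised to Affymetrix HG-U133 Plus 2.0 arrays, 1 array a sample. The log2 values used are those the authors deposited, and the labels do not name the normalization behind them. The scale was read from the values, whose array medians lie between 7.36 and 7.46. Of 54675 probe sets, 41091 were annotated to 1 gene, 1801 to several, 11721 to none, and 62 were controls. Probe sets were kept where at least 1 group mean lay above 7.41, the median of all values, which left 15352 of 19775 genes. Each gene was read from its kept probe set with the highest mean. A probe set named _x_at, which can also bind related transcripts, was used only where no other was kept. CDT1 was thus read from a probe set with a mean of 9.37, where its _x_at probe set had 11.0. Of the members' 91 probe sets 85 were kept.

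One limma model (R 4.3.3, limma 3.58.1) had a mean for each of the 42 groups of line, treatment and day, with 46 residual degrees of freedom and a moderated test. Contrasts gave the response (552A minus DMSO) by line, by day, its equality over lines (F test), its change between day 7 and day 2, and levels in DMSO. Shared responses were fitted with the line as replicate. P-values were adjusted by Benjamini-Hochberg over all 15352 genes and called below 0.05. On simulated data for NCI-H510 the test recovered 96% of changes of 0.5 and 100% of changes of 1 on the log2 scale and called 0.0462% of unchanged genes. Changes below 0.5, the size of every called response of a member over the days, were not simulated. Neither were lines sampled at day 4 only, so the recovery in those cases is not known. The number of arrays limits the precision, and so does the quality of single arrays. In the 21 pairs of line and day, replicate numbers correlated above 0.1 in 11 and below -0.1 in 5, with SHP-77 at day 7 in both counts. With so few arrays a group, this cannot settle whether the numbers pair samples. The main model left them out. The members, lists and array rule were chosen with earlier results of these data known.

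Values on every array of the lines or days concerned are given for the S phase and mitosis member with the largest called response in each line, and for the 2 of each list with the smallest p of unequal response, the largest shared change in DMSO, and the widest range of DMSO levels. Alternatives were quantile normalization, no or a stricter filter, the mean of a gene's probe sets, an intensity trend, the ACTB difference as covariate, a replicate block, a line's own arrays, and leaving out arrays or lines. Promoters come from RefSeq on GRCh38.p14.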

Additional observations from a re-analysis of the deposited data

Results flagged for a closer look

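On 552A day 7 arrays of SHP-77, 1 of 4 arrays stood apart from the other 3 in 2 of the 43 members by Dixon's test, a rate near the 1 in 20 that chance gives. E2F1 read 10.13, 10.02, 10.02 and 10.03, with a gap of 0.892 of the range. CDC25C read 9.92, 9.66, 9.95 and 9.92, with a gap of 0.890 of the range. The cause was not tested.

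The response to 552A differed between the 6 time course lines in 18 members by limma's F test, with the distance between the lowest and the highest line on the log2 scale as its size. Among mitosis genes the distance was 0.64 for CENPF, 0.47 for CDC25C, 0.43 for KIF11, 0.42 for FOXM1, 0.41 for AURKB, 0.40 for KIF20A and 0.39 for TOP2A. It was 0.31 for CENPE, 0.30 for TTK, 0.30 for BUB1, 0.26 for CDC20, 0.25 for CDK1 and 0.23 for MYBL2. Among S phase genes it was 0.45 for E2F2, 0.39 for E2F8, 0.35 for GINS2, 0.32 for POLA1 and 0.22 for CCNE1. SHP-77 was the lowest line for 15 of the 18.

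In COLO668 the response differed between day 7 and day 2 by -0.45 for GINS2 and by -0.33 for MYBL2, both by a test of the difference itself. MYBL2 lost that call without the arrays in doubt (-0.27, limma adjusted p = 0.0627) and in 69 of 88 omissions of a single array. The 2 day 7 groups of that line hold 2 of the arrays in doubt.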

How the results depend on the processing

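Counts of members called are given as total per comparison, and calls over all genes moved as well. With quantile normalization all genes called rose from 3245 to 3875 in NCI-H526, from 2308 to 2818 in NCI-H510, from 3248 to 4261 in COLO668 and from 1419 to 1678 in H1417. Leaving out NCI-H446 DMSO day 4 replicate 2 gave 3976 in NCI-H526 and 4125 in COLO668. Shares of all genes without the 6 arrays in doubt are given with each line above. The counts that follow are of members. Quantile normalization gave 17 in NCI-H526 (8 in the report), 3 in NCI-H510 (1), 11 in COLO668 (5), 1 in NCI-H146 (0), 3 in NCI-H446 (1), 1 in H2171 (0), 18 in H1417 (9), 76 over line and day (43), 28 in the test of equality (18), 19 for DMSO day 7 minus day 2 (12) and 5 for the response at day 7 minus day 2 (2). Omitting the 6 arrays in doubt gave 21, 10, 11, 2, 2, 2, 25, 77, 30, 29 and 14 for those comparisons in the same order, and 1 in H69 (0). With no filter NCI-H446 had 0 and the change between days 1. With the mean of a gene's probe sets NCI-H526 had 5, COLO668 8, NCI-H446 2 and the change between days 1. With the ACTB covariate SHP-77 had 21 (13), NCI-H510 3, H1417 16 and the change between days 1. A line's own arrays gave 15 in NCI-H526, 8 in NCI-H510, 3 in COLO668, 0 in NCI-H446 and 0 in H1417.

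With the replicate number as a block, NCI-H510 had 2, NCI-H446 2, H2171 1 and the change between days 5, and SHP-77 had 18, NCI-H526 9, COLO668 5 and H1417 11. Whether the numbers pair the samples is not settled.

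Leaving out single arrays gave 8 to 19 in SHP-77, 5 to 15 in NCI-H526, 1 to 2 in NCI-H510, 2 to 10 in COLO668, 0 to 4 in NCI-H446, 0 to 1 in H2171 and 3 to 16 in H1417. It gave 36 to 67 over line and day, 13 to 25 in the test of equality, 6 to 21 for DMSO day 7 minus day 2 and 1 to 7 for the change between days. NCI-H446 DMSO day 4 replicate 2 gave the highest count in SHP-77, NCI-H526, NCI-H510, COLO668, H2171 and H1417. The DMSO change had 6 without SHP-77 DMSO day 2 replicate 1 or day 7 replicate 1. It had 7 without SHP-77 DMSO day 2 replicate 2, COLO668 DMSO day 2 replicate 1 or day 7 replicate 2, and 19 without SHP-77 DMSO day 7 replicate 2.

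The intensity trend and the stricter filter kept every count within 1.5 times the reported one. Leaving out each line was run for the 2 shared comparisons alone, where the count stayed 0. Of the 37 called pairs of member and line, 16 stayed past the threshold whichever array of their own line was left out, 21 lost the call at least once and 0 reversed. Of 25 pairs with another kept probe set, 19 had all others of the same sign. At least 1 other was called the same way in 9, and in 0 was another called the opposite way. In SHP-77 a second called probe set was there for TOP2A alone. The other probe sets of BUB1 in SHP-77 ran between -0.23 and 0.05, and those of CDC25C between -0.13 and 0.06. The causes were not tested.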
